A study of Rattus norvegicus with 15 samples.

Results

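The family of miR-25 was taken as the 5 rat microRNAs (miRNAs) rno-miR-25, rno-miR-32, rno-miR-92a, rno-miR-92b and rno-miR-363, each found by its exact name among the 350 miRNAs on the array. Total RNA of sciatic nerve from adult male rats was labelled with cyanine 3 and hybridised to 15 single-colour arrays. The groups were normal, uninjured nerve (day 0) and injured nerve 1, 4, 7 and 14 days later, with 3 arrays each. The injury is a resection with 0.5 cm of proximal nerve in the series text, but a crush with about 0.5 mm of damaged nerve in the treatment protocol, and the samples carry both the names proximal stump and injury site. The word injury stands for both here. No strain, allele or drug is given, and no label says whether each array holds 1 animal or a pool, so the spread that p-values measure may be technical. The prefix rno is left out below.

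A miRNA guides an Argonaute protein to messenger RNAs, mainly by pairing of its seed, bases 2 to 8, with the target. miRNAs with the same seed can therefore bind many of the same messages even when they come from different genes. The family is best known through the miR-17 to miR-92a cluster and its paralogous clusters, which are associated with cell proliferation and survival. After nerve injury, Schwann cells lose their myelin programme and divide while leukocytes enter the nerve.

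The mature sequences below, from RefSeq for the GRCr8 assembly, are shown because the capitals, the seed, are what joins the members, whereas the lower-case part is what separates them. All 5 members matched an entry.

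miR-25: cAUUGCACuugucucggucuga

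miR-32: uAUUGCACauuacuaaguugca

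miR-92a: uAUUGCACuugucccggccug

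miR-92b: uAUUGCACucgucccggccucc

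miR-363: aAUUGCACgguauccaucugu

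The 5 names were the only ones with the seed AUUGCAC in the table of 724 mature entries, where they took 6 entries because miR-92a has a pair of genes. Read from the 5′ end without gaps, miR-25 and miR-92a were identical at 11 of the 13 positions after the seed and differed by C1U, U14C and U18C over the 21 compared. miR-92a and miR-92b were also identical at 11 of these 13 positions, with U10C and G21C as their differences. miR-363 matched miR-92a at 3 of the 13 positions and miR-25 at 1. miR-32 matched miR-25 at 6 of 14. Signal may thus be shared most easily among miR-25, miR-92a and miR-92b on short probes, and this was not tested.

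The members come from 5 chromosomes. The mature miR-25 lies at chr12:22156652-22156673 on the minus strand, inside the span of Mcm7, which encodes a subunit of the replicative helicase. Its neighbours miR-93 and miR-106b lie in the same span. miR-32 lies at chr5:76391328-76391349 on the minus strand, inside the span of Tmem245, a gene for a membrane protein. miR-92a is encoded by Mir92a1 at chr15:98588602-98588622 on the plus strand, at the end of the miR-17 to miR-92a cluster, and by Mir92a2 at chrX:137342945-137342965 on the minus strand. miR-363 lies beside the second copy, at chrX:137342788-137342808. miR-92b lies at chr2:176931663-176931684 on the minus strand, outside any protein-coding span, and its hairpin is 296 bases from Thbs3. Exons and introns were not used here. The array cannot separate the Mir92a1 and Mir92a2 products, whose mature sequences are identical.

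Levels are log2 of background-subtracted intensity after scaling to the 75th percentile of the array, computed from the 164 miRNAs with a detection on every one of the 15 arrays. A level of 0 therefore equals that percentile. The levels of different miRNAs cannot be ranked against each other, because probes bind differently. Detection is the scanner software's call. miR-25, miR-92a and miR-363 were detected on all 15 arrays, miR-32 on 13 and miR-92b on 5. All 5 members were among the 231 miRNAs tested, which needed a detection in all 3 replicates of some group.

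Arrays had 200 to 239 detected miRNAs, and day 14 replicate 3 had 172. That array also had a negative control mean of -8.54, against -1.03 to 1.19 on the others. Myelinating glia miRNAs marked the tissue: miR-338 was detected on all 15 arrays, whereas miR-219-5p was detected on 2. Day 0, day 1 and day 4 each had a slide of their own, so slide and group cannot be told apart in any comparison with day 0. Replicates 1 and 2 of day 14 shared a slide with day 7. Day 14 replicate 3 was the only array on its slide and the only one with its scan date. For that array, slide and scan date cannot be separated from the sample. Scan dates also set days 0 and 1 apart from each other and from all later groups.

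The members did not move as one. miR-32 was lower at every time after injury, by 2.53-fold to 3.48-fold. miR-363 was lower on days 1, 4 and 7 by 1.33-fold to 1.52-fold. miR-92a was higher on days 4 and 7, and miR-25 on day 14, each by 1.31-fold or less under the main scaling. Other scalings gave larger or smaller rises, and not every call held. miR-92b was too dim for a fold against day 0.

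**Figure D1:**
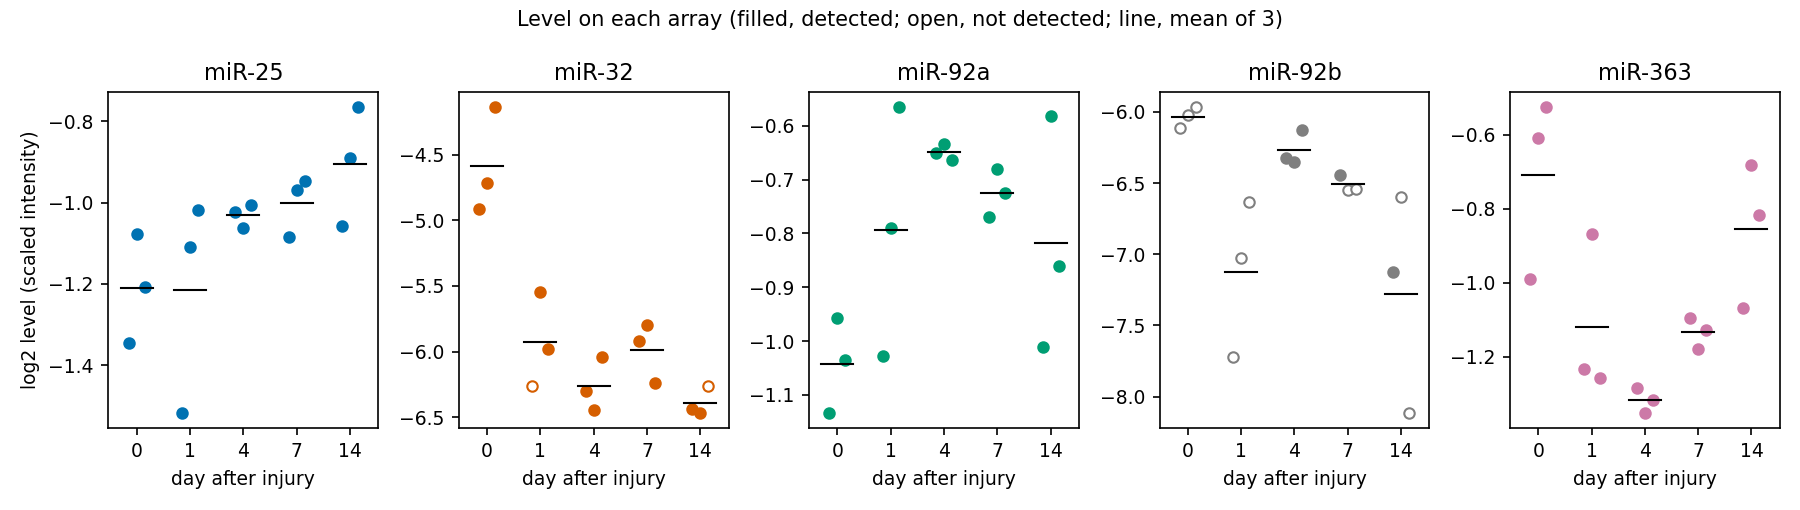
Log2 level of each member (vertical axis, a separate scale for each miRNA) on each of the 3 arrays per group, by day after injury. Filled points were detected, open points were not, and the line is the group mean; all 3 day 0 points of miR-32, from -4.91 to -4.14, lie above its 12 later points.

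miR-32 (rno-miR-32) stood at -4.91, -4.71 and -4.14 on the 3 day 0 arrays. It was at -6.26, -5.55 and -5.98 on day 1 and at -6.30, -6.44 and -6.04 on day 4. It was at -5.92, -5.80 and -6.24 on day 7 and at -6.44, -6.46 and -6.26 on day 14. Every injured array was below every day 0 array, and the injured groups overlapped with their neighbours in the order of levels. On 1 day 1 array and 1 day 14 array miR-32 was not detected, so its level there is near the limit of the array.

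Against day 0, miR-32 fell by 1.34 ± 0.21 (log2, SE, n = 3 per group) on day 1, with limma adjusted p = 0.000146. It fell by 1.67 ± 0.21 on day 4 (limma adjusted p = 1.3e-05) and by 1.40 ± 0.21 on day 7 (limma adjusted p = 5.64e-05). The day 14 fall of 1.80 ± 0.21 (limma adjusted p = 8.64e-06) was the lowest change of all 231 miRNAs tested. Without day 14 replicate 3 the changes were -1.13, -1.52, -1.24 and -1.77, and all passed. Its rank from the lowest was 3, 4 and 7 on days 1, 4 and 7.

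The array carries 4 probes for miR-32 with 5 spots each. Probe 1 was near background: its mean intensity was -0.615 on day 0 and between -1.62 and 2.15 later. Only 1 of its 15 spots on day 1 was above background, and none in the other groups. The other 3 probes gave the fall separately. Probe 3 went from a mean intensity of 38.6 on day 0 to 13.3, 10.8, 12.6 and 14.0 on days 1, 4, 7 and 14. Probe 4 went from 47.1 to 17.4, 14.8, 16.5 and 17.6. Probe 2 was dimmer, at 20.3 on day 0, and its day 7 change of -0.88 did not pass the test (limma adjusted p = 0.083). On day 0, 34 of its 45 spots on these 3 probes were above background, so even the brightest group was a weak signal. On days 1, 4, 7 and 14 only 8, 9, 9 and 10 of 45 were above background. Most spots behind the levels after injury were thus not above background.

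The size of the miR-32 fall differed between ways of processing the signal. In the authors' deposited value table the changes were -2.50, -2.53, -2.00 and -3.11 on days 1, 4, 7 and 14. After a normexp background correction with an offset of 50, which is larger than the mean intensity of miR-32 on any array, they were -0.18, -0.28, -0.38 and -0.43. All 8 of these changes passed the limma test. The sign was negative in each, but its fold cannot be taken as exact. The deposited table may differ in more than its background, and the cause of its larger values was not tested.

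miR-363 (rno-miR-363), from the X-linked cluster, was at -0.99, -0.61 and -0.53 on day 0. It was at -1.23, -0.87 and -1.26 on day 1 and at -1.28, -1.35 and -1.32 on day 4. It was at -1.09, -1.18 and -1.13 on day 7 and at -1.07, -0.68 and -0.82 on day 14. The day 4 and day 7 arrays were all below the day 0 arrays, whereas days 1 and 14 overlapped day 0.

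Against day 0, miR-363 fell by 0.41 ± 0.14 on day 1 (limma adjusted p = 0.0199), by 0.61 ± 0.14 on day 4 (limma adjusted p = 0.00166) and by 0.43 ± 0.14 on day 7 (limma adjusted p = 0.0158). On day 14 the change was -0.15 ± 0.14 (limma adjusted p = 0.364). The median of all 231 miRNAs tested was itself -0.26, -0.26, -0.32 and -0.37 on days 1, 4, 7 and 14, so the day 1 and day 7 values lay close to it. Without day 14 replicate 3, which alters the scaling, the day 1 change was -0.20 (limma adjusted p = 0.259) and the day 7 change -0.27 (limma adjusted p = 0.124). The day 4 fall still passed at -0.46. Leaving out day 0 replicate 3, day 1 replicate 1 or day 1 replicate 3 also ended the day 1 call, with changes of -0.32, -0.35 and -0.34, and day 0 replicate 3 ended the day 7 call at -0.33.

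miR-92a (rno-miR-92a) was at -1.13, -0.96 and -1.04 on day 0. It was at -1.03, -0.79 and -0.57 on day 1 and at -0.65, -0.63 and -0.66 on day 4. It was at -0.77, -0.68 and -0.72 on day 7 and at -1.01, -0.58 and -0.86 on day 14. Days 4 and 7 lay above all day 0 arrays with little spread, whereas days 1 and 14 overlapped day 0.

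Against day 0, miR-92a rose by 0.39 ± 0.12 on day 4 (limma adjusted p = 0.0124) and by 0.32 ± 0.12 on day 7 (limma adjusted p = 0.0363). The changes of 0.25 ± 0.12 on day 1 and 0.22 ± 0.12 on day 14 did not pass (limma adjusted p = 0.0963 and 0.127). Leaving out any 1 array of day 0 or day 7 ended the day 7 call, with changes of 0.27 to 0.34. Without day 14 replicate 3 all 4 changes passed, at 0.46, 0.54, 0.48 and 0.34.

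miR-25 (rno-miR-25), from the cluster inside Mcm7, was at -1.35, -1.08 and -1.21 on day 0. It was at -1.52, -1.11 and -1.02 on day 1 and at -1.02, -1.06 and -1.01 on day 4. It was at -1.08, -0.97 and -0.95 on day 7 and at -1.06, -0.89 and -0.77 on day 14. Day 1 spread across the day 0 range, and only days 4 and 14 lay wholly above it.

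The change of miR-25 was -0.0044 ± 0.13 on day 1, 0.18 ± 0.13 on day 4 and 0.21 ± 0.13 on day 7, with limma adjusted p of 0.977, 0.217 and 0.154. The day 14 rise of 0.31 ± 0.13 passed narrowly (limma adjusted p = 0.0441). That call was lost when any 1 array of day 0, day 4 or day 7, or day 14 replicate 2, was left out, with changes of 0.24 to 0.32. Without day 14 replicate 3 the changes on days 4 and 7 were 0.33 and 0.37 and passed the test.

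miR-92b was detected on all 3 arrays of day 4, on 1 of day 7 and 1 of day 14, and on none of days 0 and 1. Its mean intensity was 9.43 on day 0, 4.16 on day 1, 7.24 on day 4, 7.30 on day 7 and 4.16 on day 14. Its model passed as lower than day 0 on days 1 and 14, but no day 0 array had a detection, and no fold is given. It met the filter for testing through day 4 alone, and its calls between groups are counted but support nothing. Each day 1 array was set to its lowest detected signal, or to the signal of miR-92b if higher. The day 4 mean was 1.41-fold above these values. This is a description, since the detections on day 4 admitted miR-92b. It is not a lower limit either, because miR-92b was undetected on day 0 at a higher mean intensity than on day 4, where it was detected. The call for day 4 against day 1 ended when day 0 replicate 1 or 2, day 1 replicate 1, day 4 replicate 3 or day 7 replicate 1 was left out, and under several processing alternatives.

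Of the 5 members, 3 passed on day 1, all lower, beside 60.6% of all 231 miRNAs, of which 16.9% passed as higher and 43.7% as lower. On day 4, 3 passed (1 higher, 2 lower) beside 65.8% of all (20.3% higher, 45.5% lower). On day 7, 3 passed (1 higher, 2 lower) beside 62.8% of all (17.3% higher, 45.5% lower), and without day 0 replicate 3 the count was 1. On day 14, 3 passed (1 higher, 2 lower) beside 66.7% of all (16% higher, 50.6% lower). These shares of members are near the background, so their number says nothing particular to the family. The arrays of 2, 5, 4 and 3 members did not overlap with day 0 on days 1, 4, 7 and 14, beside 53.7%, 77.1%, 74.9% and 62.8% of all miRNAs. These counts include miR-92b, which no day 0 array detected. The median change of the 5 members was -0.41, -0.23, -0.43 and -0.15 on days 1, 4, 7 and 14. These medians include miR-92b too, and the day 4 value is its own change.

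Between consecutive times, 1 member (miR-92b) passed for day 4 against day 1, beside 51.5% of all miRNAs, and it had entered the test only through its day 4 detections. None passed for day 7 against day 4, beside 6.06%, or for day 14 against day 7, beside 13.9%. At an unadjusted limma p below the threshold, day 7 against day 4 gave 0 members, and day 14 against day 7 gave 1, miR-92b at 0.028. The limma F test over the 5 groups passed for miR-32 (adjusted p = 2.81e-05) and miR-363 (adjusted p = 0.00678), and for miR-92b, beside 86.1% of all miRNAs. miR-92b was admitted to it by day 4 alone and was undetected on 10 of the 15 arrays, so nothing is read from its call. For miR-92a and miR-25 the F test gave adjusted p of 0.0737 and 0.114. With slide as a random block, 4 members passed it, and several scalings also raised the count. The slide fit cannot separate slide from group for days 0, 1 and 4, and its estimated correlation within slides was -0.046.

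**Figure D2:**
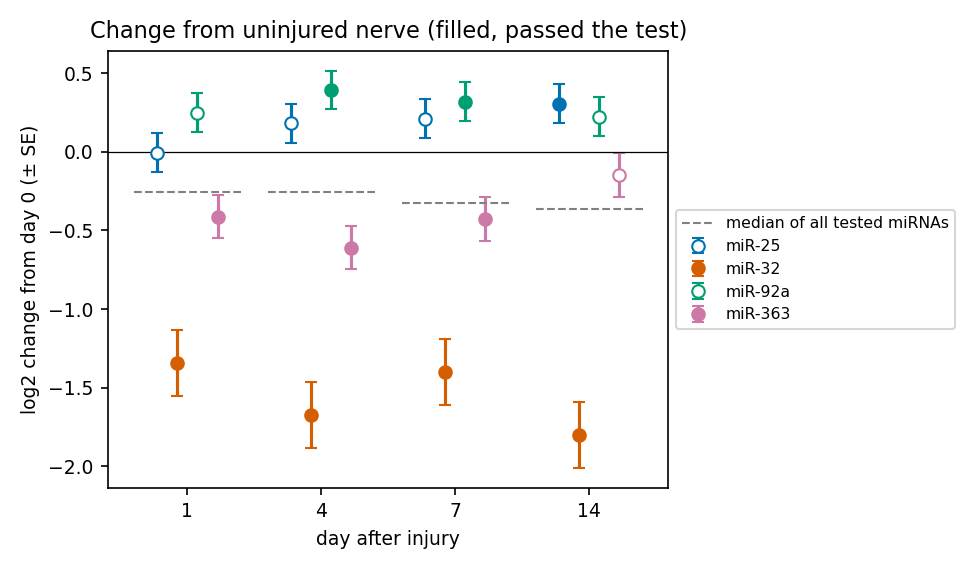
Log2 change from day 0 with its standard error (vertical axis) for miR-25, miR-32, miR-92a and miR-363 on days 1, 4, 7 and 14. Filled points passed the limma test, and the dashed line is the median of all tested miRNAs. miR-32 lies between -1.34 and -1.80, below the other members on every day.

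The scaling of the arrays moved these small changes. With the 75th percentile taken over all miRNAs on the array, the median of all tested miRNAs was -0.08, 0.05, 0.04 and -0.01 on the 4 days, and the calls on day 4 went from 47 higher and 105 lower to 74 and 74. Calls on day 14 went from 37 higher and 117 lower to 70 and 54. Under that scaling miR-25 was at 0.17 on day 1 and passed as higher on days 4 and 7, at 0.49 and 0.57, and miR-363 on day 7 was at -0.06. The miR-92a rises were 0.71 on day 4 and 0.68 on day 7 there, the miR-25 rise on day 14 was 0.67 (0.69 without scaling), and the miR-363 fall on day 4 was at -0.29 and still passed. Quantile normalisation gave 0.60, 0.50 and 0.47 for these 3 rises, and the authors' deposited table gave 0.63, 0.52 and 0.45. The miR-363 change on day 14 turned positive, at 0.21 with the 75th percentile over all miRNAs and at 0.24 without scaling. miR-92a passed as higher on days 1 and 14 under that percentile, at 0.42 and 0.58, and under quantile normalisation, at 0.29 and 0.30. Without scaling its day 4 change was 0.24 and did not pass (limma adjusted p = 0.0508), nor did the day 7 change of miR-363 at -0.32 (limma adjusted p = 0.0692). With every miRNA on the array tested, the day 7 call of miR-92a and the day 14 call of miR-25 were lost (limma adjusted p = 0.0525 and 0.0647). The sign for miR-32 was the same under every scaling.

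A difference between 2 miRNAs on the same array is free of such a scaling factor. It was computed for every pair of members and for each cluster member against its cluster mates, giving 13 differences. The 3 day 0 arrays were compared with the 12 injured arrays by a two-sided exact permutation test over 455 splits, with 0.0044 the smallest p it can give. P-values were adjusted over the 13. Probe affinity is constant across arrays, so only the change of a difference is read here, not its size. The share of pairs among all tested miRNAs that part from day 0 in this way was not computed. Day 0 also has its own slide and scan date. A separation from day 0 is therefore not read as particular to a pair.

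miR-32 lost ground to each of the 3 well-detected members. The difference of miR-32 minus miR-92a was -3.55 on day 0 and -5.39 after injury, a change of -1.85 (95% interval -2.29 to -1.37). The change was -1.15 for miR-32 minus miR-363 (-1.67 to -0.71) and 1.73 for miR-25 minus miR-32 (1.20 to 2.19). In each, 12 of 12 injured arrays lay beyond all day 0 arrays (exact permutation p = 0.0044, adjusted p = 0.00635). In the authors' deposited table the 3 changes were -2.99, -2.28 and 2.94. After the normexp correction they were -0.57, 0.0096 and 0.47, and the change against miR-363 did not pass there (exact permutation adjusted p = 0.87).

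miR-363 also parted from miR-25 and miR-92a. The difference of miR-92a minus miR-363 went from -0.33 on day 0 to 0.36 after injury, a change of 0.69 (0.33 to 1.06). By day the change was 0.66, 1.00, 0.74 and 0.37 on days 1, 4, 7 and 14. The difference of miR-25 minus miR-363 went from -0.50 to 0.07, a change of 0.57 (0.27 to 0.83), with daily changes of 0.41, 0.79, 0.64 and 0.45. In both, 12 of 12 injured arrays were above all day 0 arrays (exact permutation adjusted p = 0.00635). The daily changes of both were largest on day 4; with 3 arrays against 3, no single day was tested.

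miR-25 and miR-92a, which are close in sequence, did not pass this test. Their difference, miR-25 minus miR-92a, changed by -0.12 (95% interval -0.28 to 0.10; exact permutation p = 0.251, adjusted p = 0.296). Its daily changes were -0.25, -0.21, -0.11 and 0.08. Still, 10 of 12 injured arrays lay below all day 0 arrays, including every array of days 1, 4 and 7. The day 14 arrays ran from -0.31 to 0.095, on both sides of the day 0 range of -0.21 to -0.12. The value over all injured arrays thus pools days that differed, and no single day was tested. Its interval leaves room for a change of either sign. The 4 differences with miR-92b were counted in the 13 but are not given, since that miRNA had no detection on day 0.

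**Figure D3:**
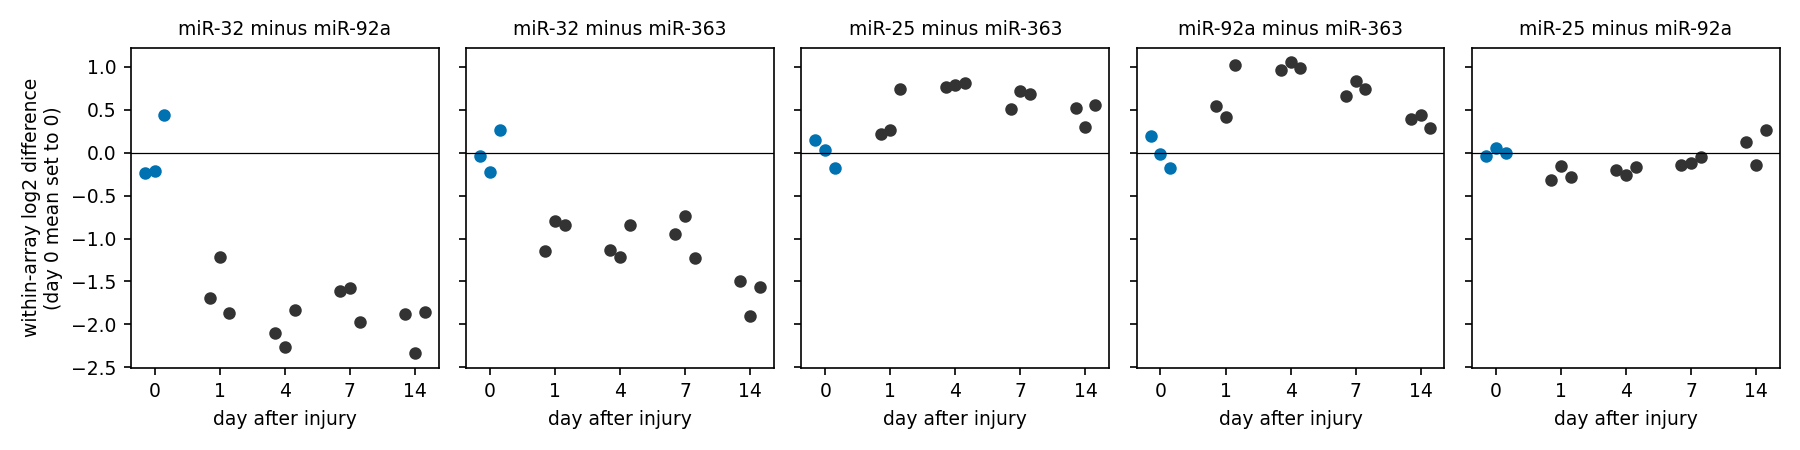
Difference of log2 levels on the same array for 5 pairs of members (vertical axis, with the day 0 mean of each pair set to 0), by day after injury. Blue points are the 3 day 0 arrays and dark points the 12 injured arrays, which lie beyond all day 0 arrays in every pair but miR-25 minus miR-92a.

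Each cluster member was then set beside the miRNAs transcribed with it. These mates carry other seeds. The seed AAAGUGC is shared by miR-17-5p, miR-20a, miR-20b-5p, miR-93 and miR-106b. The seed GUGCAAA is that of miR-19a and miR-19b, and AAGGUGC that of miR-18a. Against day 0, 5 of the 8 mates rose on day 1 and none fell, beside 16.9% of all tested miRNAs called higher and 43.7% called lower. On days 4 and 7, 7 rose and 1 fell, beside 20.3% and 17.3% of all called higher. On day 14, 7 rose and none fell, beside 16% called higher. The median change of the mates was 0.33, 0.85, 0.73 and 0.73 on days 1, 4, 7 and 14. That of all tested miRNAs was -0.26, -0.26, -0.32 and -0.37. The median of the members was also below 0 each time, but it counts miR-92b, which no day 0 array detected. On day 4 that median was the change of miR-92b itself. On day 14 the other members changed by -1.80 (miR-32), -0.15 (miR-363), 0.22 (miR-92a) and 0.31 (miR-25).

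miR-25 lagged behind its mates. On day 4, miR-93 rose by 0.79 ± 0.13 and miR-106b by 0.40 ± 0.11 (limma adjusted p = 0.000152 and 0.00509), beside the 0.18 of miR-25. On day 14 miR-93 rose by 0.75 and miR-106b by 0.72. The difference of miR-25 minus the mean of both mates changed by -0.36 (95% interval -0.47 to -0.22), with 12 of 12 injured arrays below all day 0 arrays (exact permutation adjusted p = 0.00635).

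miR-92a also rose less than the other miRNAs of its chromosome 15 cluster. On day 4, miR-19a rose by 1.23 ± 0.15, miR-20a by 0.98 ± 0.11, miR-19b by 0.90 ± 0.10 and miR-17-5p by 0.72 ± 0.11. miR-18a rose by 2.61 ± 0.16, although it was detected on only 1 of the 3 day 0 arrays. The limma adjusted p of these 5 lay between 1.18e-08 and 8.3e-05. The difference of miR-92a minus the mean of these 5 changed by -0.66 (95% interval -0.89 to -0.38), again with 12 of 12 arrays beyond day 0 (exact permutation adjusted p = 0.00635). Its daily changes were -0.37, -0.90, -0.75 and -0.63. The change was -1.33 in the authors' deposited table, where miR-17-5p has no row, and -0.24 after normexp. The mean of the mates includes miR-18a, which rose most of the 5 on each day. The size of the change thus depends in part on a miRNA detected on only 1 day 0 array, and the difference without miR-18a was not computed. On day 4 each of the other mates also rose by more than the 0.39 of miR-92a. The mature miR-92a, miR-19b and miR-17-5p sequences are also encoded in the X-linked cluster, so the chromosome 15 transcript is not the only possible source of their signal.

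miR-363 changed in the same direction as its mate at each time. miR-20b-5p, encoded nearby on the X chromosome, was at -3.57, -3.25 and -3.09 on day 0 and at -3.97, -4.03 and -3.93 on day 4. It fell by 0.67 ± 0.15 on day 4 and by 0.63 ± 0.15 on day 7 (limma adjusted p = 0.00134 and 0.0022). Its changes of -0.30 on day 1 and -0.16 on day 14 did not pass (limma adjusted p = 0.0928 and 0.364). The difference of miR-363 minus miR-20b-5p changed by 0.04 (95% interval -0.10 to 0.20; exact permutation p = 0.58, adjusted p = 0.58). The daily changes of this difference were -0.11, 0.07, 0.20 and 0.01 on days 1, 4, 7 and 14. The day 1 arrays lay below all day 0 arrays and the day 7 arrays above them. The value over all injured arrays thus averages shifts of both signs, and no single day was tested. miR-20b-5p was the mate that fell while the other 7 rose on days 4 and 7.

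**Figure D4:**
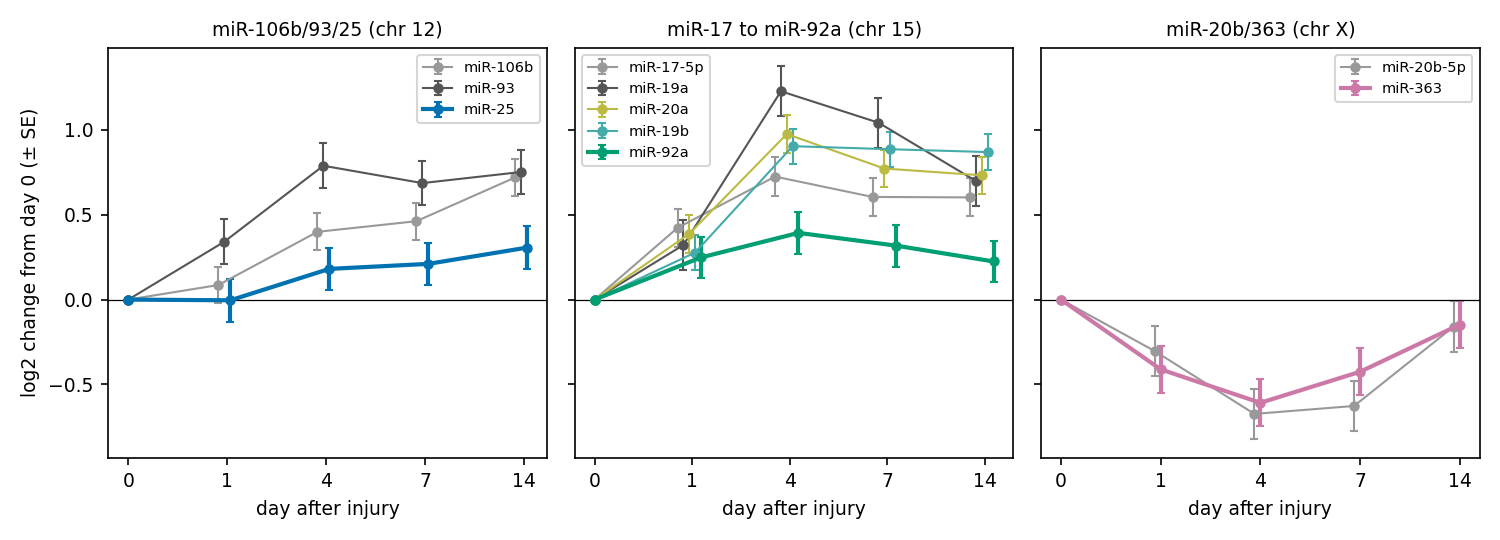
Log2 change from day 0 with its standard error (vertical axis) by day after injury, in panels for the chromosome 12, chromosome 15 and X-linked clusters. Coloured blue, green and pink are miR-25, miR-92a and miR-363; miR-18a, which rose by 2.61 on day 4, is left out to keep the scale. miR-25 and miR-92a lie below their mates on days 4, 7 and 14, while miR-363 and miR-20b-5p both lie below 0 at each time after injury.

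The other arms of these hairpins gave little signal. miR-363* was detected on no array and miR-25* on 1. miR-106b* was detected on 5 arrays, miR-20a* and miR-20b-3p on 4 each and miR-17-3p on 3. None was detected on all 3 arrays of a group, so none was tested.

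Among 161 other miRNAs detected on all 15 arrays, those with the most similar profiles were found by the root mean square of the difference in log2 level after each miRNA's own mean was removed. For miR-25 they were miR-342-3p (0.0896), miR-101b (0.115) and miR-29a (0.13), against a median of 0.351 over the 161. For miR-92a they were miR-29a (0.104), miR-532-3p (0.136) and miR-500 (0.146), against 0.383. For miR-363 they were miR-27b (0.0673), miR-23b (0.0705) and miR-30e (0.0938), against 0.291. No cluster mate was among these nearest profiles. The distances of the mates are not given here, so this does not show that their profiles were far.

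The summed levels of miRNAs listed as cell type markers differed between the groups. In bulk tissue, fewer cells of a type and less RNA per cell cannot be told apart. The summed scaled level of 5 myelinating glia miRNAs was 16.9 to 25.9 on day 0, 11.1 to 14.7 on day 1, 8.74 to 10.3 on day 4, 8.91 to 9.80 on day 7 and 10.3 to 13.9 on day 14. Of the 4 tested, 3 fell on days 1, 4 and 7 and 4 on day 14, miR-211 was not detected on day 1, and miR-219-5p was not detected on days 1, 4 and 7.

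The sum of 5 leukocyte miRNAs was 1.62 to 1.92 on day 0, 3.17 to 4.26 on day 1, 2.87 to 3.23 on day 4, 2.90 to 3.20 on day 7 and 2.20 to 2.81 on day 14. All 5 were detected in every group. At each time 3 passed as higher, but the set was not the same throughout. On days 1, 4 and 7 it held miR-223, miR-142-5p and miR-142-3p. On day 14 miR-223 no longer passed, at 0.21 (limma adjusted p = 0.281), whereas miR-342-3p did, at 0.36 (limma adjusted p = 0.0113). miR-150 passed as lower on days 4, 7 and 14. The list holds miR-342-3p, the nearest profile to miR-25. The erythrocyte sum of miR-451 and miR-144, without miR-486, was 0.734 to 3.98 on day 0 and 3.04 to 9.53 on day 1. It was 1.72 to 3.70, 1.09 to 2.61 and 1.17 to 1.37 on days 4, 7 and 14. The sum of 5 muscle miRNAs was 0.738 to 16.3 on day 0, 1.66 to 3.96 on day 1, 0.452 to 0.560 on day 4, 0.270 to 0.849 on day 7 and 0.881 to 2.23 on day 14. The high end on day 0 came from replicate 1, where miR-1 was at 3.12, against -1.52 and -0.76 on replicates 2 and 3. The part of these cell types in the members' changes was not tested.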

How the data were processed

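Per the file headers, the authors scanned 1-colour Agilent miRNA arrays with Feature Extraction 10.7.3.1, which gave the deposited intensity of each spot. The series value table holds the authors' deposited log2 values, whose scaling is not given in the sources used here; its columns followed log2 of the software's total gene signal across miRNAs. Its column medians were 4.28, except 0.834 for day 14 replicate 3.

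Outlier and control spots were left out. Background-subtracted intensity was averaged over spots, then probes, divided by the array's 75th percentile over 164 miRNAs, floored at 0.00362 (log2 of -8.11) and log2-transformed. The 231 tested miRNAs were fitted with limma 3.58.1 in R 4.3.3, with all 15 arrays in 1 model of 5 group means, two-sided tests and Benjamini-Hochberg adjustment in each comparison at 0.05. Within-array differences were tested with scipy 1.17.1 under Python 3.11.15, and each 95% interval holds the shifts that the exact permutation test did not reject. The limma step was tested on simulated data. The number of arrays, 3 per group, limits the precision.

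All members, their cluster mates and other arms, and the 3 nearest profiles were named by rule; marker lists were only printed. Members and lists were chosen with earlier results of these data known. Replicate numbers were taken from the labels and did not pair arrays. Alternatives covered scaling, background, probes, filters, floor, slide and left-out arrays.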

Additional observations from a re-analysis of the deposited data

How the results depend on the processing

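Signal over background limits miR-32 and miR-92b, and slides cannot be told apart from groups for days 0, 1 and 4. Of 818 log2 changes recomputed for 4 members, 741 kept their direction and their side of the threshold, 28 lost and 27 gained a call, and 22 changed sign. The cause of a change was not tested unless it follows from how the alternative is built.

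The number of members that passed for day 1 was 5 with quantile normalisation and 1 among miRNAs detected on all 15 arrays, where miR-32 and miR-92b were not tested; for day 14 it was also 1 there. For day 4 against day 1 it was 3 with the percentile over all miRNAs or quantile normalisation and 0 with the software's total gene signal, normexp, the median over probes, no filter, only miRNAs detected on all 15 arrays, or a lower floor. It was 1 for day 7 against day 4 with normexp and 1 for day 14 against day 7 without scaling. The F test passed for 5 members with the percentile over all miRNAs, quantile normalisation or no scaling, for 4 in the deposited table or with slide as a random block, for 2 with the software's signal or the lower floor, and for 1 among miRNAs detected on all 15 arrays. With an array left out, counts ran from 2 to 3 (day 1), 1 to 3 (day 7), 2 to 4 (day 14), 0 to 1 (day 4 against day 1) and 0 to 1 (day 14 against day 7, the 1 without day 14 replicate 2).

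With the replicate number as a block, the replicate block fit passed 5 members in the F test and changed no other call. The numbers did not pair the arrays: correlations of same-numbered arrays ran from -0.87 to 0.76, and 13 of 30 were over 0.1.

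Sign changes were as follows. miR-25 on day 1 was 0.17 with the percentile over all miRNAs, 0.23 with quantile normalisation, 0.24 in the authors' deposited table, 0.029 with normexp, 0.072 with probe 1 alone and -0.10 to 0.21 with an array left out. miR-25 for day 14 against day 7 was -0.059 with quantile normalisation, -0.0597 in the authors' values, and -0.0404 to 0.17 with an array left out. miR-32 probe 1, near background, gave 0.36 for day 14 against day 0 and 0.36 against day 7. It gave no value in its comparisons of days 0, 1, 4 and 7. miR-32 for day 7 against day 4 was -0.10 with normexp, -0.046 with probe 3 and -0.069 with probe 4. miR-92a was -0.078 for day 4 against day 1 with probe 1, 0.18 for day 7 against day 4 and 0.19 for day 14 against day 7 without scaling, and -0.21 to 0.00302 for the last with an array left out. miR-363 on day 14 was 0.21 with the percentile over all miRNAs and 0.24 without scaling. Among within-array differences, miR-25 minus miR-92a changed by 0.0062 with quantile normalisation, and with normexp miR-32 minus miR-363 changed by 0.0096 and miR-363 minus miR-20b-5p by -0.10.

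The lower floor and normexp on the median signal were added after seeing the data. Normexp on the mean signal was not run.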
